A study of Mus musculus with 4 samples.

Results

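The 9 genes described here encode the machinery by which cells present peptides on major histocompatibility complex (MHC) class II molecules, and they were chosen by name: H2-Aa, H2-Ab1, H2-Eb1, Cd74, H2-DMa, H2-DMb1, Ciita, Rfx5 and Ifi30. Of these, 8 were named alone by at least 1 probe set in the annotation of the array platform, out of 18193 genes so named, and 16 of the 34958 probe sets with a single gene symbol belonged to them. H2-DMb1 had only probe sets that also bind its near-identical neighbour H2-DMb2, and is described from those as a shared signal. Expression was read on 4 Affymetrix arrays, 1 for each sample, from mouse bone marrow. All samples began as LSK cells (negative for lineage markers, positive for Sca-1 and for c-kit), the fraction that holds blood stem and early progenitor cells. Of the samples, 1 had been transduced with a retrovirus for enhanced green fluorescent protein (eGFP) and 1 with a retrovirus for β-catenin, through which Wnt signals act on transcription, and both were taken at day 3. The other samples, named DKmix, were β-catenin-transduced LSK cells cultured to day 50 and to day 300. All samples shared a serum-containing medium with IL-3, SCF, Flt3 and IL-11. The labels give neither the mouse strain nor the number of animals or cultures behind a sample. With 1 array a group there is no replicate check, no test was made and no p-value is given, and precision is limited by the number of arrays.

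MHC class II molecules are pairs of an α and a β chain that carry peptides from endocytosed proteins to the cell surface, where CD4+ T cells read them. They are held mainly by dendritic cells, B cells and macrophages. The invariant chain, encoded by Cd74, guides newly made pairs to endosomes, cathepsins cut it down, and the H2-DM heterodimer exchanges its last fragment for peptide. Transcription of the class II genes depends on a promoter module of W/S, X and Y boxes. The RFX complex, which contains Rfx5, CREB-family proteins and NF-Y bind this module, and the co-activator CIITA, which binds no DNA itself, is recruited to them and is the limiting switch in most cells.

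Promoter sequence is shown for 3 class II chain genes, in which the Y box and either the X box or a cyclic AMP response octamer can be seen, and for a pair of member genes outside the chains, for comparison with the values below. Sequences are from RefSeq (GRCm38.p6), 5′ to 3′ on the strand of the gene, from base -100 to base -31 before the annotated start. Capitals mark, on either strand, a Y box searched as TGATTGG, an X box searched as AAC, any 2 bases and ATGATG and the cyclic AMP response octamer TGACGTCA.
H2-Aa, chr17:34287854-34287923, minus strand: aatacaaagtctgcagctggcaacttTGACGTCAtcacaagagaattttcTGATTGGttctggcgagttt
H2-Eb1, chr17:34305767-34305836, plus strand: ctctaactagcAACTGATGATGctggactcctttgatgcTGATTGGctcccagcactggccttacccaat
H2-DMb1, chr17:34153091-34153160, plus strand: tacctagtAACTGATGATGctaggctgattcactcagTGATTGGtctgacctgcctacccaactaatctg
Rfx5, chr3:94954008-94954077, plus strand: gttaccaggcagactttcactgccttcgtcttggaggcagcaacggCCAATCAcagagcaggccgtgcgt
Ifi30, chr8:70766694-70766763, minus strand: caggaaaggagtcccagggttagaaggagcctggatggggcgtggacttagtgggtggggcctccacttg

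In H2-Eb1 the X box match began at base -89 and the Y box at base -61, and in H2-DMb1 they began at -92 and -63. H2-Aa held the octamer from base -74 and the Y box from base -50, with no match to the X box letters searched. Rfx5 held the Y box letters on the opposite strand, at -54 and again at -113, and neither of the other motifs. Ifi30 had no match in its 300-base window, which runs from 250 bases before to 50 after the start, nor had either of the 2 annotated starts of H2-DMa. Among 32851 promoter windows of this length, 7.82% held the Y box letters, 0.137% the X box letters, 1.79% the octamer, and 0.180% the Y box together with either of the others. The Y box letters contain ATTGG, the reverse complement of CCAAT, which alone was in 37.4% of windows. Outside the members, H2-DMb2 and H2-Ob also held both boxes, at -121 and -92 and at -85 and -59. H2-Eb2 and H2-Oa held the Y box letters, from -102 and from -45, with no match to the X box letters or the octamer. A match describes letters only, and binding was not measured. The letters were chosen after the promoters were read, so the shares over all windows are no test of the matches. The promoters of H2-Ab1, Cd74 and Ciita were not analysed here.

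Values are linear MAS5 signal intensities, 1 per probe set and array, already scaled by the authors to a common level (trimmed mean 150.0 on each array). An intensity up to 48.3, the median of all values, is called the floor and treated as not measurable. Where 1 array of a pair was at the floor, the ratio is a bound, written "at least". A gene was counted as higher or lower from a ratio of 2-fold, by its brightest probe set (highest mean log2 over the arrays). The spread between probe sets of the same gene, the only error within these data, was 0.64 on the log2 scale for the day 3 pair and between 0.63 and 0.92 for the other 5 pairs (SD). It leaves out differences between cultures.

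A few facts of the arrays touch all ratios. The 3′ to 5′ ratio of Gapdh, a measure of RNA integrity, was 4.14 in eGFP cells and 4.96 at DKmix day 50 but 1.18 in β-catenin cells and 1.06 at DKmix day 300. That of Actb was 1.83 in eGFP cells, 3.41 at DKmix day 50, 1.32 in β-catenin cells and 1.20 at DKmix day 300. The part of RNA integrity in the ratios was not tested. When the arrays were scaled on hybridisation controls instead, the split of all genes past 2-fold became uneven, with 3690 higher and 851 lower for β-catenin over eGFP (1365 and 1259 as deposited), and 628 higher and 6071 lower for DKmix day 50 over β-catenin day 3 (2208 and 2162), as for day 300 with 605 and 6007 (1773 and 1828). H2-Aa, H2-Ab1, H2-Eb1 and Cd74 kept their direction on that scale, with log2 ratios between 2.70 and 3.25 for β-catenin over eGFP beside a median of 0.51 over all genes, and between -8.10 and -3.97 for the DKmix arrays over β-catenin day 3. Ctnnb1, the gene for β-catenin, was 4492 in β-catenin cells at day 3 and 4732 in eGFP cells by its brightest probe set, and 1065 against 179.6 and 678.6 against 300.8 by the other 2, so its probe sets disagreed. Kit, which defines LSK cells together with Sca-1, was only 55.8 and 82.9 on the eGFP and β-catenin day 3 arrays, close to the floor, and 3460 and 1263 on DKmix day 50 and day 300. Sca-1 itself (Ly6a) was not analysed here. Of 10 mast cell markers, 9 were at least 2-fold higher on both DKmix arrays than on both day 3 arrays, as were 2.78% of 15292 genes. In bulk RNA, fewer cells of a type and less RNA per cell cannot be told apart.

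H2-Aa, H2-Eb1 and Cd74 had a like course: present in eGFP cells, several-fold higher in β-catenin cells at day 3, and near or under the floor in DKmix cells. H2-Aa, the α chain of the I-A molecule, was 1852 in eGFP cells, 8397 in β-catenin cells at day 3, 7.1 at DKmix day 50 and 27.1 at DKmix day 300. Both day 3 arrays were far above the floor and both DKmix arrays below it, so that against β-catenin day 3 H2-Aa was at least 174-fold lower at day 50 and at day 300 alike. H2-Eb1, the β chain of the I-E molecule, was 469.6, 3102, 9.5 and 16.8 in the same order of arrays, and at least 64.2-fold lower than β-catenin day 3 on each DKmix array. Its values again did not overlap between the day 3 and DKmix arrays. A gap of at least 2-fold in this direction was found for 2.68% of 15292 genes.

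Cd74, the invariant chain, was 1243 in eGFP cells, 7680 in β-catenin cells at day 3, 58.8 at DKmix day 50 and 99.1 at DKmix day 300. Unlike H2-Aa and H2-Eb1 it remained just above the floor on the DKmix arrays, which gave measured ratios of 131-fold lower at day 50 and 77.5-fold lower at day 300 than β-catenin day 3. The same DKmix values were 21.1-fold and 12.5-fold below eGFP day 3.

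H2-Ab1, the β chain that pairs with H2-Aa, also had its highest signal in β-catenin cells at day 3, with less in DKmix cells. Its brightest probe set was 321.7 in eGFP cells, 1903 in β-catenin cells at day 3, 125.6 at DKmix day 50 and 241.8 at DKmix day 300. DKmix day 300 lay 7.87-fold under β-catenin day 3 but within 2-fold of eGFP day 3 (1.33-fold lower). A second probe set gave 117.8, 2611, 18.1 and 222.0, and another 89.6, 474.4, 17.2 and 126.0. At DKmix day 50 these 2 were under the floor, so H2-Ab1 was measurable there by its brightest probe set only. At DKmix day 300 every H2-Ab1 probe set was above the floor. All 3 placed β-catenin day 3 highest and DKmix day 50 lowest, and by the latter 2 DKmix day 300 was 1.88-fold and 1.41-fold above eGFP day 3. The α chain had no such signal at day 300 by any of its 4 probe sets, all of them at 27.1 or less.

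**Figure D1:**
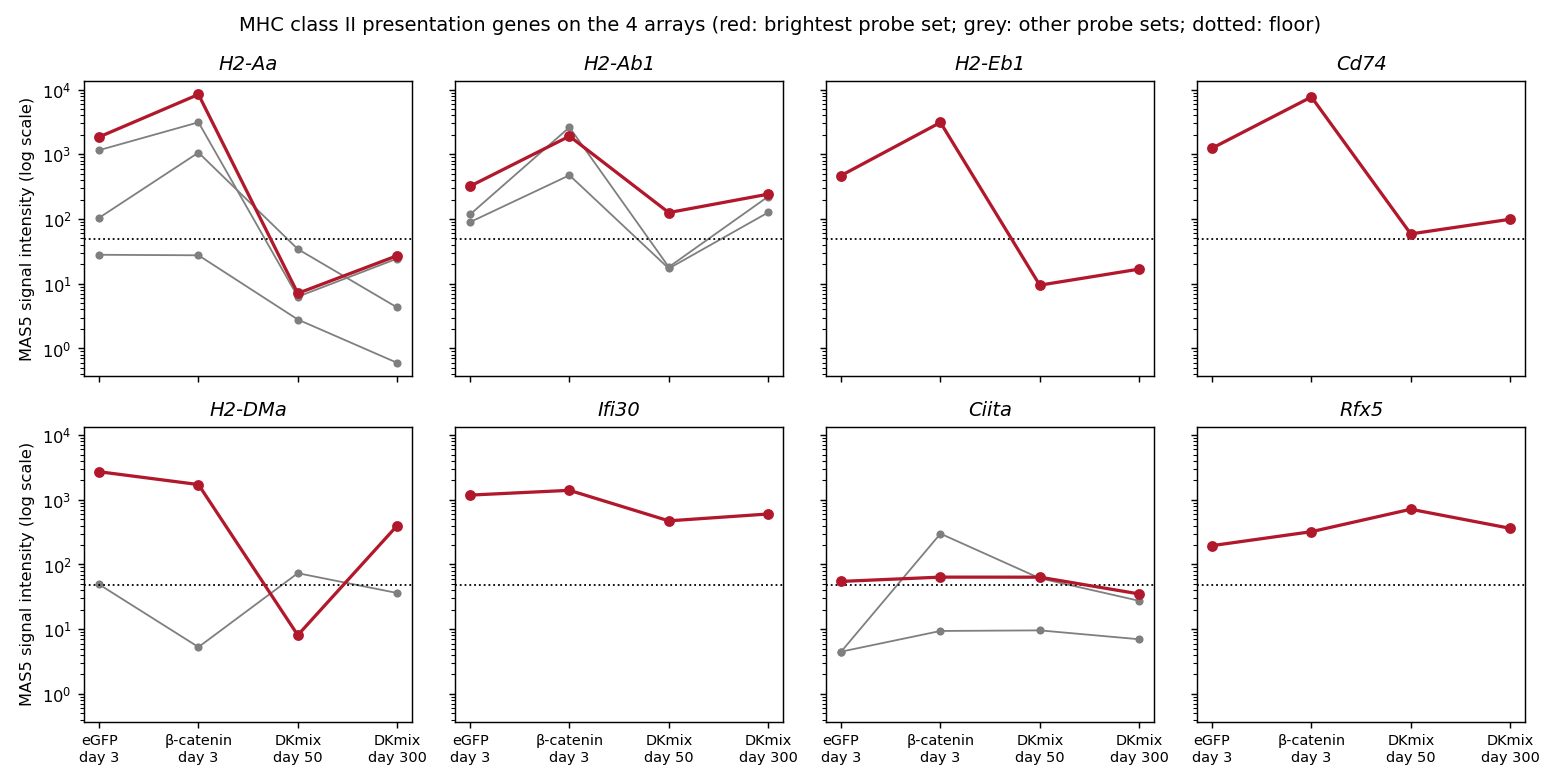
Signal intensity (log scale) of every probe set of the 8 class II genes with a probe set of their own on the 4 arrays; red marks the brightest probe set, grey the others, and the dotted line the floor of 48.3. The 4 genes of the upper row peak on β-catenin day 3, H2-DMa peaks on eGFP day 3, and Ciita and Rfx5 span less than 4-fold by their brightest probe sets.

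Probe sets of the same gene mostly had the same direction. For H2-Aa, 3 of 4 probe sets were above the floor on the day 3 arrays, with 1158 and 104.4 on eGFP and 3117 and 1062 on β-catenin day 3 beside the brightest. These 3 were 2.69-fold, 10.2-fold and 4.53-fold higher with β-catenin, the last value from the brightest, and all were under the floor on both DKmix arrays. The 4th was under the floor on every array. All H2-Aa probe sets carry a suffix by which the manufacturer marks possible binding to related transcripts. The brightest H2-Ab1 probe set, another of that gene and the dimmer H2-DMa probe set carry such a suffix too. The class II chains are related and polymorphic between mouse strains.

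H2-DMa, the α chain of the peptide exchange factor, was not higher with β-catenin at day 3, while the classical chains were. It was 2710 on eGFP day 3 and 1718 on β-catenin day 3, 1.58-fold lower and so within 2-fold. This log2 ratio was -0.66, beside a probe set SD of 0.64. It was -0.14 on the hybridisation control scale and -1.94 when probe sets were averaged. At DKmix day 50 H2-DMa was 8.1, at least 35.6-fold below β-catenin day 3. At DKmix day 300 it was 398.2, a value 4.31-fold below β-catenin day 3. A second H2-DMa probe set was dim throughout, at 49.2, 5.3, 73.4 and 36.3, and did not share this course. With the mean of both, the log2 ratio of DKmix day 300 over β-catenin day 3 was 0.33, the opposite sign.

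H2-DMb1, the partner chain, could be read only together with H2-DMb2. The 2 shared probe sets gave 95.5 and 201.3 in eGFP cells, 192.6 and 672.1 in β-catenin cells at day 3, 147.3 and 159.0 at DKmix day 50, and 490.2 and 594.3 at DKmix day 300. Both were above the floor on all arrays, at least 2.02-fold above eGFP in β-catenin cells, and 3.33-fold and 3.74-fold higher at day 300 than at day 50. The probe sets of H2-DMb2 alone did not share the high day 300 signal: the brightest was 299.3, 592.4, 48.0 and 71.3 in the order eGFP, β-catenin, DKmix day 50 and day 300, and the others were 58.1 and 4.0 at day 300.

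Ifi30 encodes GILT, the thiol reductase that unfolds disulfide-bonded antigens in endosomes. It was 1181 in eGFP cells, 1399 in β-catenin cells at day 3, 472.4 at DKmix day 50 and 602.9 at DKmix day 300. The day 3 arrays were alike (1.18-fold apart), and the DKmix arrays were lower than β-catenin day 3 by 2.96-fold and 2.32-fold, a far smaller difference than that of the chains. It was measured well above the floor on every array.

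The regulators did not have the pattern of the chains by the probe sets used for the counts. Ciita, the co-activator, was dim: its brightest probe set was 54.8, 63.8, 63.7 and 35.1 on eGFP, β-catenin, DKmix day 50 and DKmix day 300, never more than 1.32 times the floor. A second Ciita probe set gave 4.5, 299.4, 61.3 and 27.5, and with it Ciita was at least 6.20-fold higher on β-catenin day 3 than on eGFP day 3, 4.88-fold lower at DKmix day 50 and at least 6.20-fold lower at DKmix day 300. The remaining one was at 9.6 or less everywhere. The probe sets therefore disagreed in size: the second placed β-catenin day 3 well above the other arrays, while the brightest had 63.8 and 63.7 on β-catenin day 3 and DKmix day 50. Rfx5, the DNA-binding subunit, was 195.6, 321.4, 713.7 and 362.5 in the same order. It was above the floor on every array and highest at DKmix day 50.

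In the comparison of β-catenin with eGFP at day 3, which asks what the transgene does within days, 4 of the 8 genes were at least 2-fold higher and 0 lower, where 10.2% of 13365 measured genes were higher and 9.42% lower. The 4 were H2-Eb1 (6.61-fold), Cd74 (6.18-fold), H2-Ab1 (5.92-fold) and H2-Aa (4.53-fold). The median log2 ratio of the 8 was 1.45, beside -0.01 over all genes. Over all member probe sets, 14 could be measured in this pair, of which 9 were higher, 0 lower and 5 within 2-fold.

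In the comparison of later β-catenin-transduced cells with those of day 3, which may or may not stem from the same culture, 6 of the 8 genes were lower at DKmix day 50 than at β-catenin day 3 and 1 higher, where 15.7% of 13742 genes were lower and 16.1% higher. The 1 higher was Rfx5 (2.22-fold), which was within 2-fold when the arrays were scaled on hybridisation controls (log2 ratio 0.10). The lower ones were H2-Aa, Cd74, H2-Eb1, H2-DMa, H2-Ab1 and Ifi30. At DKmix day 300 the same 6 genes were lower and 0 higher, where 14.4% of 12656 genes were lower and 14% higher. The member median was -4.54 at day 50 and -2.54 at day 300, beside 0.07 and -0.08 over all genes. Both comparisons share the β-catenin day 3 array, on which the classical chains were highest.

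**Figure D2:**
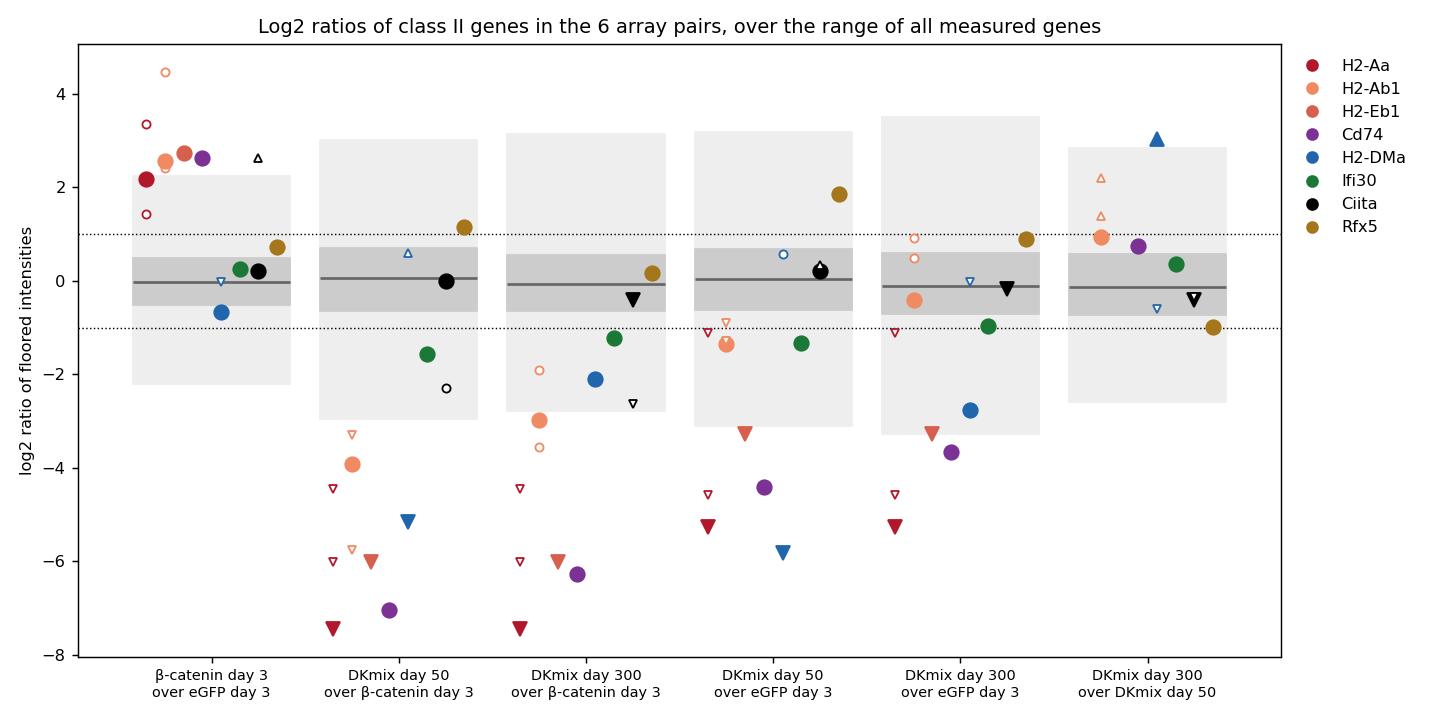
Log2 ratios of floored intensities in the 6 array pairs; large filled symbols are the brightest probe set of a gene, small open ones its other probe sets, and triangles are bounds. Light grey boxes span percentiles 1 to 99 of all measured genes, dark grey boxes percentiles 25 to 75, and dotted lines mark 2-fold; H2-Aa, H2-Eb1 and Cd74 lie below the light boxes in both pairs that set a DKmix array against β-catenin day 3.

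Set against eGFP day 3 instead, the DKmix arrays gave smaller ratios for H2-Aa, H2-Ab1, H2-Eb1 and Cd74. Those of H2-DMa were larger by its brightest probe set. At day 50, 6 of the 8 genes were lower and 1 (Rfx5, 3.65-fold) higher, where 15% of 13820 genes were lower and 15.6% higher. H2-DMa was at least 56.1-fold lower, H2-Aa at least 38.3-fold, H2-Eb1 at least 9.72-fold and H2-Ab1 2.56-fold. At day 300, 4 were lower and 0 higher, where 15.8% of 12810 genes were lower and 15.8% higher. H2-Ab1 and Ifi30 (1.96-fold lower) were then within 2-fold. By the stricter rule, in which the higher DKmix array must lie at least 2-fold under the lower day 3 array, 4 genes were lower, namely H2-Aa, H2-Eb1, Cd74 and H2-DMa, as were 2.68% of 15292 genes, and 0 were higher by the same rule, as were 2.78%.

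Between the DKmix arrays, the share of the genes past 2-fold was near that of all genes. Of the 6 genes that could be measured, 1 was higher at day 300 than at day 50 and 0 lower, where 15.1% of 13100 genes were higher and 15.9% lower. That gene was H2-DMa, at least 8.24-fold higher. H2-Ab1 was 1.93-fold higher by its brightest probe set, and at least 4.60-fold and 2.61-fold by the others, Cd74 was 1.69-fold higher, and Rfx5 was 1.97-fold lower. H2-Aa and H2-Eb1 were under the floor on both arrays, so no ratio is given. Outside the members, H2-Oa, the α chain of the H2-O inhibitor of H2-DM, was 67.6, 391.6, 132.4 and 365.1 on eGFP, β-catenin, DKmix day 50 and DKmix day 300, so that day 300 was 2.76-fold above day 50 and within 2-fold of β-catenin day 3. Its partner H2-Ob was 15.9, 50.1, 34.6 and 97.4, low on every array. This pair of arrays also had the poorest agreement of probe sets: among genes past 2-fold, a second probe set had the same direction for 62.4%, the lowest share of the 6 pairs.

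**Figure D3:**
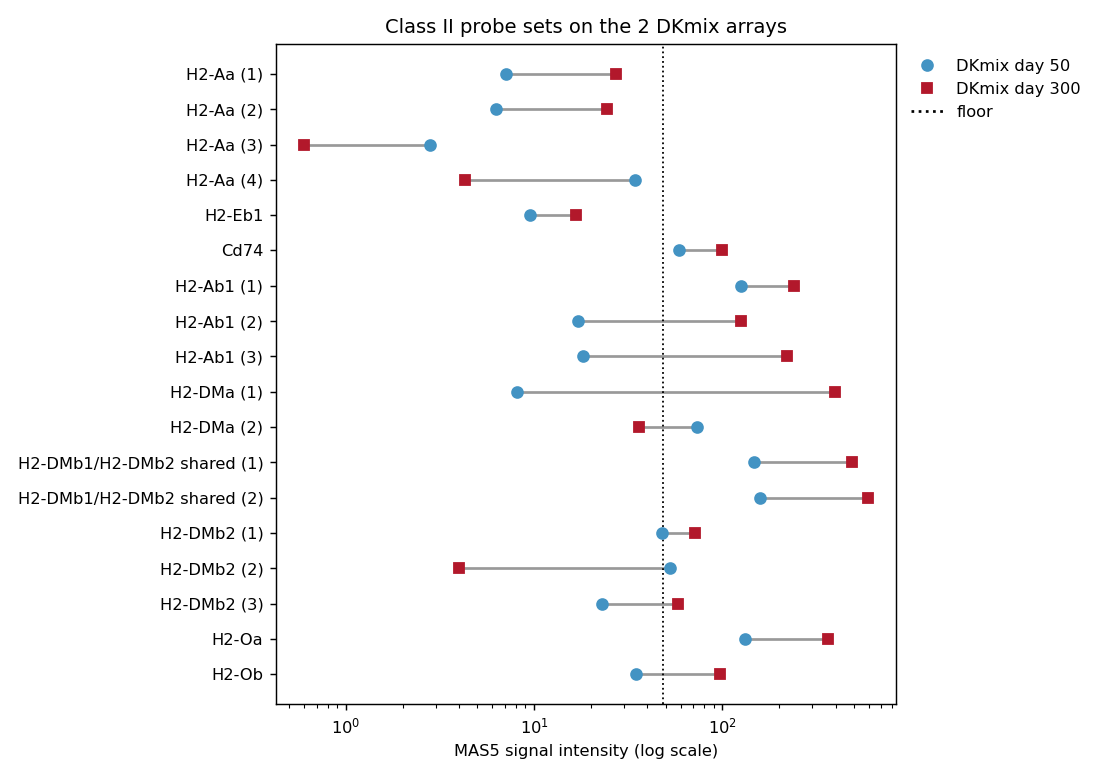
Signal intensity (log scale) of class II probe sets on DKmix day 50 (blue circles) and day 300 (red squares), with the floor as a dotted line; probe sets of a gene are numbered, the brightest first, except for the shared ones. H2-DMa (1), both shared H2-DMb probe sets, H2-Oa and 2 of the H2-Ab1 probe sets are above the floor at day 300 and at least 2.61-fold above day 50 or the floor, while all H2-Aa and H2-Eb1 probe sets stay below it.

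The other class II chains and chaperones, a list of 5 genes (H2-Ea, H2-Eb2, H2-DMb2, H2-Oa and H2-Ob), were 2 higher and 1 lower with β-catenin at day 3. H2-Oa was 5.79-fold and H2-Eb2 at least 2.45-fold higher, and H2-Ea was at least 2.19-fold lower. At DKmix day 50, 3 of the 5 were lower than at β-catenin day 3, led by H2-DMb2 (at least 12.3-fold), and 0 higher. At day 300, 2 were lower. Shares of all genes past 2-fold in 1 direction were between 9.42% and 16.1% in these pairs. The 3 H2-Ea probe sets, which read the α chain of I-E, the partner of H2-Eb1, were at 105.8 or less on every array and disagreed on which array was highest.

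Among 9 measured genes for loading proteases and class II traffic, the cathepsins split. Cathepsin S (Ctss), which makes the last cuts in the invariant chain, was 115.3, 1012, 13.2 and 36.2 on eGFP, β-catenin, DKmix day 50 and day 300, highest on β-catenin day 3 and under the floor on both DKmix arrays, as was H2-Aa. It was 8.78-fold higher with β-catenin at day 3 and at least 21.0-fold lower on each DKmix array. Cathepsin Z (Ctsz) was 782.5, 4136, 190.4 and 2789 and so was high again at day 300, 14.6-fold above day 50. Ctsl was 464.5, 497.5, 10.2 and 314.2, and day 300 was at least 6.51-fold above day 50. Ctsd, a cathepsin of all lysosomes, was the only gene of the 9 above both day 3 arrays on both DKmix arrays by its brightest probe set, at 3821 and 7125 against 1903 and 1269. Counts for the list were 3 higher and 0 lower with β-catenin at day 3, 1 higher and 5 lower at DKmix day 50 than at β-catenin day 3, 2 higher and 3 lower at day 300, and 4 higher and 0 lower at day 300 than at day 50. The median of the last was 1.48, beside -0.14 over all genes. In these pairs, the shares of all genes past 2-fold in 1 direction were between 9.42% and 16.1%.

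The partners of CIITA gave small counts, which stand beside shares of all genes between 9.42% and 16.1% in the same comparisons. Of 10 genes for RFX and NF-Y subunits, CREB, co-activators and Nlrc5, 2 were higher and 0 lower with β-catenin at day 3, 2 higher and 1 lower at DKmix day 50 than at β-catenin day 3, and 1 higher and 2 lower at day 300. Nlrc5, the class I counterpart of CIITA, was 74.3, 292.9, 7.5 and 5.6 on eGFP, β-catenin, DKmix day 50 and day 300, at least 6.06-fold lower on each DKmix array than on β-catenin day 3. Nfya, an NF-Y subunit, was 2.08-fold higher with β-catenin at day 3, and Kat2b and Crebbp, both acetyltransferases, were 2.68-fold and 2.20-fold higher at DKmix day 50 than at β-catenin day 3, although another Crebbp probe set was lower there (51.9 against 152.9). The other RFX subunits, named after their values were seen, were above the floor on all arrays by their brightest probe sets, Rfxap between 165.6 and 294.8 and Rfxank between 96.5 and 198.1.

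Interferon-γ is the best known inducer of Ciita, and 12 genes of that route or of Ciita promoter control were measured. With β-catenin at day 3, 2 were higher and 0 lower, where 10.2% of all genes were higher and 9.42% lower. The 2 were the feedback inhibitor Socs1 (6.39-fold) and Irf4 (2.77-fold). At DKmix day 50, 5 were lower than at β-catenin day 3 and 1 higher, where 15.7% of all genes were lower and 16.1% higher. The receptor chains Ifngr2 and Ifngr1 were at least 11.9-fold and 3.11-fold lower, Irf8, a factor of dendritic cells and macrophages, was at least 4.56-fold lower, and Irf4 at least 4.26-fold lower. At day 300, 5 were lower and 0 higher, where 14.4% of all genes were lower and 14% higher. Spi1, which encodes PU.1, was among the lower ones (3.18-fold). Ifngr2 was 339.6, 572.9, 36.2 and 184.2 over the arrays by its brightest probe set and thus at least 3.81-fold higher at day 300 than at day 50. Its other probe set was 148.6, 110.0, 10.2 and 33.6, under the floor on both DKmix arrays, and gave no ratio for that pair. The list median was -0.81 at day 50 and -0.39 at day 300 against β-catenin day 3.

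Class I presentation genes differed in the same direction at smaller size in the pairs that include β-catenin day 3. Of 14 genes, 6 were higher and 0 lower with β-catenin at day 3, led by H2-D1 (3.06-fold), H2-K1 (2.82-fold) and the immunoproteasome subunits Psmb8 (2.43-fold) and Psmb10 (2.27-fold), with a list median of 0.98. At DKmix day 50, 8 were lower than at β-catenin day 3 and 0 higher, with Psmb8 7.05-fold, Psmb9 6.13-fold, Psmb10 5.66-fold and the peptide transporter Tap1 3.70-fold lower. At day 300, 3 were lower and 0 higher. Against eGFP day 3, 4 were lower and 0 higher at DKmix day 50, with a list median of -0.44. At DKmix day 300, 3 were higher and 1 lower than on eGFP day 3. The list median was then 0.51, beside -1.87 for the class II members. Shares of all genes past 2-fold in 1 direction, over the pairs of arrays, were between 9.42% and 16.1%. Against day 50, 5 were higher at day 300 and 0 lower, led by Psmb9 (4.64-fold) and Psmb8 (4.38-fold). H2-K1, a class I heavy chain, was 5571, 15697, 4406 and 7530 by its brightest probe set, and all 4 of its probe sets were above the floor on every array, although another was 7.87-fold lower at DKmix day 50 than at β-catenin day 3.

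**Figure D4:**
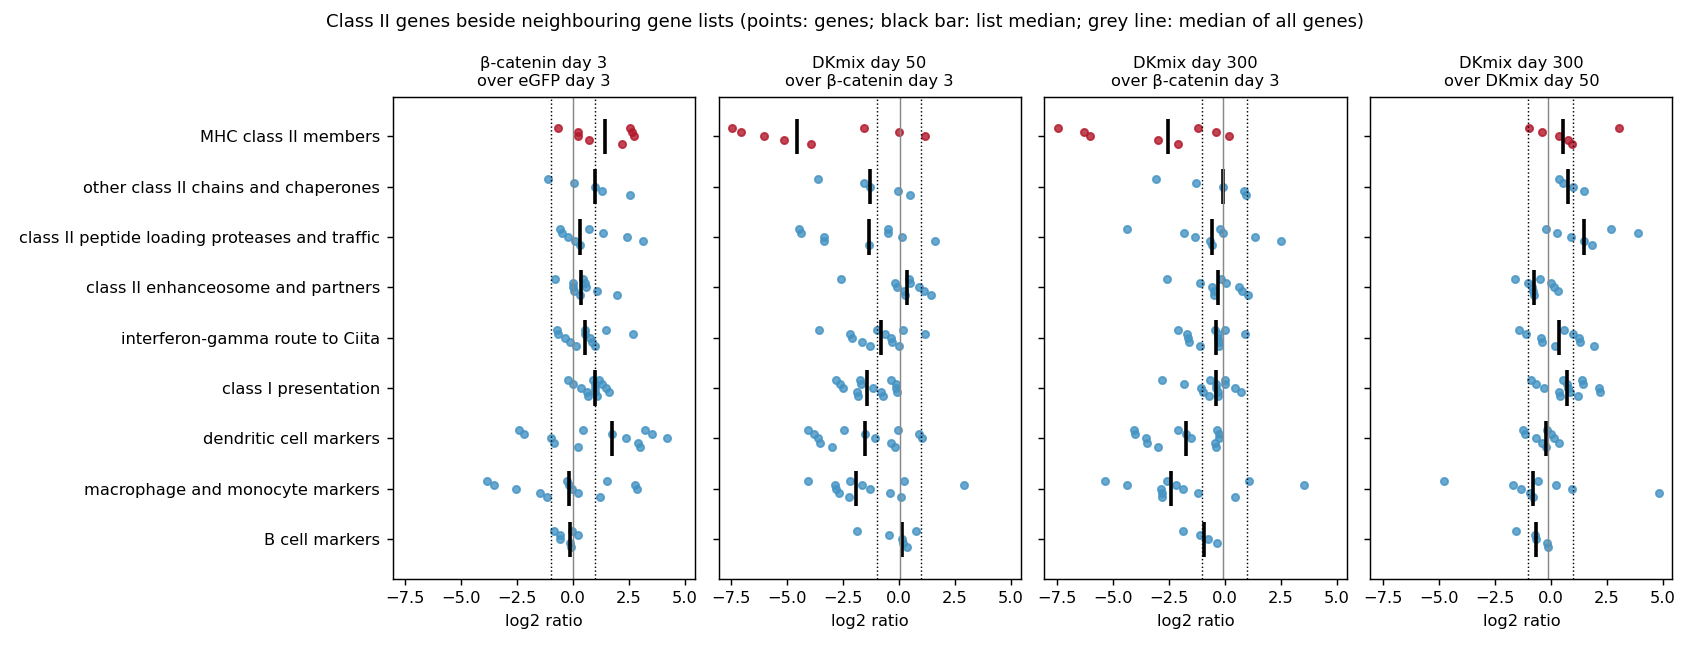
Log2 ratios of single genes (points, brightest probe set) in the class II members and 8 other gene lists for 4 array pairs, with each list's median as a black bar, the median of all genes as a grey line and 2-fold as dotted lines. Against β-catenin day 3, the member median is -4.54 at DKmix day 50 and -2.54 at DKmix day 300, and that of class I presentation is -1.43 and -0.39.

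Markers of the cell types that hold most class II were read beside these values, and their part in the results was not tested. Of 16 dendritic cell markers, 13 were above the floor in β-catenin cells at day 3, 7 in eGFP cells, 7 at DKmix day 50 and 5 at DKmix day 300. Of all genes, 61.6%, 62.0%, 64.3% and 56.6% were above the floor on these arrays, in the same order. The summed intensity of the markers was 5725, 2185, 852.1 and 692.0. With β-catenin at day 3, 7 were higher and 2 lower, where 10.2% of all genes were higher and 9.42% lower. The chemokine receptor Ccr7 was 892.0 against 5.6 (at least 18.5-fold), Cd86 557.2 against 36.6 (at least 11.5-fold), Ccl22 802.6 against 85.1 (9.43-fold) and Cd83 387.1 against 46.8 (at least 8.01-fold), all genes of activated dendritic cells. Itgax, which encodes CD11c, went the other way, at 139.5 against 743.2, as did Batf3 at 120.8 against 552.8. Flt3, Siglech and Cd209a were at or under the floor on all 4 arrays. Compared with β-catenin day 3, 8 of 13 measured dendritic cell markers were lower at DKmix day 50 and 1 (Xcr1) higher. The Xcr1 log2 ratio turned to -0.025 on the hybridisation control scale. At day 300, 8 were lower and 0 higher. Of all genes, 15.7% were lower and 16.1% higher at day 50, and 14.4% and 14% at day 300.

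Macrophage and monocyte markers went both ways at day 3. Of 13 measured, 4 were higher and 5 lower with β-catenin, where 10.2% of all genes were higher and 9.42% lower. Their summed intensity was 5499 on β-catenin day 3 against 30258 on eGFP day 3, a sum made up mostly of Lyz2 and Csf1r on the eGFP array, while the median of the markers was 278.0 against 154.7. Lyz2, a lysozyme, was 994.2 against 14390, Mpeg1 221.8 against 2568, and Csf1r, the receptor for macrophage colony-stimulating factor, 2000 against 11798 by its brightest probe set but 549.6 against 573.8 by another. In the other direction, Marco, a scavenger receptor, was 350.4 against 10.5 (at least 7.25-fold), the chemokine receptor Ccr2 334.2 against 30.9 (at least 6.92-fold), Cd68 469.2 against 163.2 and Cd14 341.7 against 146.2. On the DKmix arrays Lyz2 was 156.0 and 35.1, Csf1r 121.1 and 39.2, and Mpeg1 5.7 and 8.0. Cd68, a lysosomal membrane protein, was 5407 at DKmix day 300 against 191.6 at day 50, and Cx3cr1 was 1505 at day 50 against 55.3 at day 300, although its second probe set was 6.8 and 6.7. C1qa was at or under the floor on every array.

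B cell markers were low throughout. Of 11 genes, 7, 4, 5 and 0 were above the floor on eGFP, β-catenin, DKmix day 50 and DKmix day 300, with a summed intensity of 712.0, 511.2, 536.6 and 173.0. The shares of all genes above the floor on these arrays were 62.0%, 61.6%, 64.3% and 56.6%. None of the 7 measured in the day 3 pair was at least 2-fold apart, where 10.2% of all genes were higher with β-catenin and 9.42% lower. Cd79a, a defining B cell gene, was at or under the floor on every array. Cd79b was 187.7 and 175.4 at day 3 and 9.2 and 6.6 on the DKmix arrays.

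The genes whose course over the 4 arrays was nearest to the median course of H2-Aa, H2-Ab1, H2-Eb1 and Cd74 were sought among 7509 genes reaching 4 times the floor, by the root mean square difference of log2 profiles centred on their own means. They were Tmem176b (0.49), Thbs1 (0.52), Thy1 (0.61), Clec4n (0.75), App (0.85) and Fut8 (0.86). The mean of the Fut8 probe sets gave the opposite direction at day 3, a log2 ratio of -0.86 for β-catenin over eGFP. On the same measure H2-Eb1 and Cd74 lay at 0.22, H2-Aa at 0.71 and H2-Ab1 at 1.43 from the median that they themselves define. Their distances are therefore in part fixed by construction. H2-DMa lay at 1.60, Ifi30 at 2.05, Ciita at 2.61 and Rfx5 at 3.12. Tmem176b, a membrane protein of dendritic cells and macrophages, was 674.4 in eGFP cells, 4529 in β-catenin cells at day 3, 93.3 at DKmix day 50 and 37.6 at DKmix day 300. Thy1, a surface glycoprotein of T cells, was 1189, 2361, 10.1 and 3.7. With 4 arrays, likeness of this kind is a description only.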

How the data were processed

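RNA from 4 samples was hybridised to 1 Affymetrix array each. The deposited values are linear signal intensities for 45101 probe sets, made by the authors with MAS5 per the submitters' processing notes; its version, detection calls and a genome build are not given in the sources used here. Trimming 2% at either end gave equal means, so the authors had scaled the arrays. Gene symbols came from the platform annotation: 34958 probe sets had 1 symbol, 932 several (not named) and 9211 none; 64 control probe sets were left out. Each of 18193 genes was represented by its brightest probe set, that of highest mean on the log2 scale. Intensities were floored at 48.3 before log2 ratios were taken in Python 3.11.15 with pandas 2.3.3, and calls used 2-fold. Groups had 1 array, so no test was run; functions were tested on simulated data. Members, lists, rules and alternatives were chosen with earlier results of these data known, and motif letters after the promoters were read. Apart from the members, up to 4 genes of each list with the largest ratios past 2-fold in a comparison were named, with the 6 nearest profiles and Ctnnb1. Genes named outside this rule, such as H2-Ob, H2-Ea, Rfxap, Rfxank, Ctsd, Crebbp, Spi1, Csf1r and markers at the floor, were chosen after their values were seen. Alternatives were quantile normalization, scaling on 9 hybridisation control probe sets, floors at percentile 25 or 75, and averaging a gene's probe sets.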

Additional observations from a re-analysis of the deposited data

How the results depend on the processing

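No paired analysis was possible because each group held 1 array and no result comes from a test. Counts of member genes past 2-fold were recomputed under 5 alternatives. In 64 of 70 recomputed counts the value was within 1.5 times the one reported. The exceptions were small counts. Between the DKmix arrays, 2 genes in place of 1 were higher at day 300 with quantile normalization, with the lower floor (11, percentile 25) and when probe sets were averaged, and 1 in place of 0 was lower (Rfx5) with quantile normalization. When probe sets were averaged, 1 in place of 0 was lower with β-catenin at day 3. On the hybridisation control scale 0 in place of 1 was higher at DKmix day 50 than at β-catenin day 3, Rfx5 having a log2 ratio of 0.10. That scale moved the median of all genes by over 0.1, to 0.51 for β-catenin over eGFP and to -0.94 and -1.09 for DKmix day 50 and day 300 over β-catenin day 3. It gave 3690 higher and 851 lower genes for the day 3 pair (1365 and 1259 as reported), 628 and 6071 for DKmix day 50 over β-catenin day 3 (2208 and 2162), and 605 and 6007 for day 300 (1773 and 1828). Against eGFP day 3 it gave 1010 and 3574 at day 50 (2151 and 2071) and 1219 and 3443 at day 300 (2019 and 2025), and for day 300 over day 50 1905 and 1516 (1972 and 2078). Floors also moved counts over all genes: higher and lower genes were 3529 and 3388 with the lower floor and 604 and 542 with the higher for the day 3 pair, 4472 and 4192 or 1129 and 1271 for day 50 over β-catenin day 3, and 3528 and 4165 or 1157 and 1009 for day 300. Over eGFP they were 4345 and 4011 or 1054 and 1171 at day 50 and 3772 and 4377 or 1316 and 1132 at day 300, and for day 300 over day 50 3603 and 4577 or 1263 and 1009. Of 220 recomputed member ratios, 171 moved by less than the probe set SD, 48 by more, and 1 that was past 2-fold changed sign: H2-DMa at DKmix day 300 over β-catenin day 3, 0.33 with the mean of its 2 probe sets, of which 1 is dim. With such means, ratios of other genes past 2-fold also changed sign: Fcgr1 (0.16 for β-catenin over eGFP, -0.16 for day 300 over β-catenin day 3, 0.67 for day 50 over eGFP), Cx3cr1 at day 50 (-0.22 over β-catenin day 3, -0.044 over eGFP), Fut8 for β-catenin over eGFP (-0.86), H2-D1 (-0.053) and Kat2b (-0.40) at day 300 over eGFP. Xcr1 at day 50 over β-catenin day 3 was -0.025 on the hybridisation control scale. The cause was not tested. Among ratios within 2-fold, Rfx5 at day 300 over β-catenin day 3 was -0.82 and Ciita at day 50 over eGFP -0.31 on that scale (0.17 and 0.22 as reported). Bounds for H2-Aa, H2-Eb1 and H2-DMa depend on the floor by construction. H2-Aa at day 50 over β-catenin day 3 was -9.58 with the lower floor and -5.96 with the higher (134.6, percentile 75). At that higher floor Ciita was not measurable by its brightest probe set, though another was 299.4 on β-catenin day 3.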
